A study of Mus musculus with 23 samples.

Results

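The 40 genes described here encode the machinery of mitosis: cyclins, Cdk1 and its activating phosphatases, mitotic kinases, spindle checkpoint and kinetochore proteins, spindle motors, cytokinesis proteins and condensins. They were chosen by name for these roles and not by a rule on their values, although earlier results of these data were known. All 40 were found by symbol among the 47643 gene identifiers of the deposited tables. Each of them had reads in all 23 libraries and passed the filter on low values in every comparison, so no member is missing below. The question was how far mitosis and spindle genes differed between PyMT mammary tumors in which IL-38, a cytokine of the IL-1 family, was neutralized or deleted, and after blockade of the γδ T-cell receptor.

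All tumors came from PyMT mice, which carry the polyoma middle T oncogene and develop mammary carcinoma, and every mouse received weekly antibody or isotype for 5 weeks. In the neutralization experiment, wildtype (WT) PyMT mice received IgG (5 libraries) or the anti-IL-38 antibody (6 libraries), starting once a tumor had reached a set size. In the γδ TCR experiment, started at 13 weeks of age, WT PyMT mice received IgG (WT IgG, 4 libraries), and PyMT mice of an IL-38-deficient strain (IL-38 KO) received IgG (KO IgG, 4 libraries) or anti-γδTCR (KO anti-γδTCR, 4 libraries). The IL-38 deletion is carried in the whole body, so tumor and host lack it alike. The γδTCR antibody is described by the study as one that blocks signaling and does not deplete the cells. The study nevertheless found fewer γδ T cells in WT and IL-38 KO tumors under this antibody, with largely unchanged levels in spleen and blood. Both groups of the blockade comparison carry the deletion, and no WT tumor treated with anti-γδTCR was analysed here. The labels do not say that each library is a separate mouse, so p-values measure the spread between these libraries only.

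Dividing cells raise these transcripts late in the cycle. Cyclin A2 and B-type cyclins bind Cdk1 and drive entry into mitosis, Plk1 and the Aurora kinases mature the centrosomes and correct chromosome attachment, and the checkpoint kinases hold back the anaphase-promoting complex (APC/C) until every kinetochore is held by microtubules. Most such genes are kept silent in resting cells by the DREAM complex and switched on by B-Myb and FoxM1, which act through the cell cycle genes homology region (CHR, TTTGAA or TTCGAA) together with upstream CCAAT boxes bound by NF-Y. In a solid tumor the carcinoma cells are a main source of these transcripts, and in bulk tumor RNA fewer dividing cells and less RNA per cell cannot be told apart.

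Most promoter windows of the list held those elements. RefSeq promoter windows (build GRCm38.p6, 250 bases before to 50 after the annotated start) were held for 32 of the 40 genes and not for Ccna2, Cdc25c, Foxm1, Aurkb, Incenp, Kif20a, Tpx2 and Smc4. Searched on both strands, TTTGAA or TTCGAA stood in 26 of 32 windows (81.2%), against 19.4% of the windows of 27025 genes, and CCAAT in 25 (78.1%), against 37.9%. Both kinds stood together in 23 (71.9%), against 7.7% of all genes, 43.3% of 60 other mitotic genes and 20.7% of 29 replication genes. Birc5, Mad2l1, Nuf2 and Nusap1 held neither kind, Ccnb1 and Cenpe held CCAAT only, and Anln, Kif2c and Ndc80 held a CHR match only. In the 150 bases nearest to the start (100 before, 50 after), 19 members (59.4%) held both, against 2.09% of all genes. Matches overlapped in 1 member window, that of Ube2c, where a CCAAT match on each strand began at -186 and -183. This overlap was within 1 kind of match and not between the 2 kinds. A match is a run of letters and no measurement of binding.

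A set of 5 windows, all from genes that hold both kinds, is printed to show the arrangement, with every match on either strand in capitals. A CCAAT box appears as ATTGG when it lies on the opposite strand, and the element TTTGAA then reads as TTCAAA, whereas the rarer form TTCGAA is the same on both strands and was counted once. They belong to Top2a (chr11:99024140-99024439, minus strand), Cdk1 (chr10:69352863-69353162, minus strand), Plk1 (chr7:122159185-122159484, plus strand), Cdc20 (chr4:118437294-118437593, minus strand) and Cenpf (chr1:189688037-189688336, minus strand). Each is written 5′ to 3′ on the strand of its gene.
Top2a: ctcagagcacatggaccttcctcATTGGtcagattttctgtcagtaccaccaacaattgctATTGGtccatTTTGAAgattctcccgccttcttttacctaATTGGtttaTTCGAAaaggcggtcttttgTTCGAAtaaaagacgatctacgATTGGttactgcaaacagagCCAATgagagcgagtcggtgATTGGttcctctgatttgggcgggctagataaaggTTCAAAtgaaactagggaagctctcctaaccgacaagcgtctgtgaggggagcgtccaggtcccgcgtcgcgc
Cdk1: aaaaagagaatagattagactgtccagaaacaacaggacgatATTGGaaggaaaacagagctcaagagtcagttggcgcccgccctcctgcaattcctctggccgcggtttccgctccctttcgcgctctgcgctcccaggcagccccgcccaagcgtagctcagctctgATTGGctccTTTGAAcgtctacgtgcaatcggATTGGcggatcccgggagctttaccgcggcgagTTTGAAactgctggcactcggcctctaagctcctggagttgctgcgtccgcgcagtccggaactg
Plk1: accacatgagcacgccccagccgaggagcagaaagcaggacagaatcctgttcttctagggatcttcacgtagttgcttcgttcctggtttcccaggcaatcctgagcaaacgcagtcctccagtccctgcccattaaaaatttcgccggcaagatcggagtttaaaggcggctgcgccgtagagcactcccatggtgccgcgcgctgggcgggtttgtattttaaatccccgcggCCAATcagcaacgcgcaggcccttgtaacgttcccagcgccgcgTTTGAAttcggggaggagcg
Cdc20: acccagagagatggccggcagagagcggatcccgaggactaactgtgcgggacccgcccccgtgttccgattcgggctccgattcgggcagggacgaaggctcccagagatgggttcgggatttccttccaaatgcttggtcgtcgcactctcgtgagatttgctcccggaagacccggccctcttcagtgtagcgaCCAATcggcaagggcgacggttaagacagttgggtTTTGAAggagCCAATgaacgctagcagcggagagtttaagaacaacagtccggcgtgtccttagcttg
Cenpf: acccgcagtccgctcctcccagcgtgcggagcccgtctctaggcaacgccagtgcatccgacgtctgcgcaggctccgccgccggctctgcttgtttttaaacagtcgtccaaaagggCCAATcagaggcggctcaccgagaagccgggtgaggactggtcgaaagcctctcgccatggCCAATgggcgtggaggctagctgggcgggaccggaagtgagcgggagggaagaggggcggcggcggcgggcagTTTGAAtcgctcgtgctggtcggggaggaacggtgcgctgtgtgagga
Plk1, Cenpf and Cdk1 hold a CHR match downstream of their last CCAAT, whereas in Cdc20 a CCAAT follows the single TTTGAA, and Top2a carries both elements several times.

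Over the 32 windows, 55 CCAAT matches began between positions -228 and 2 from the start, with a median of -74, and 36 CHR matches between -188 and 41, with a median of -10. The last CHR match lay downstream of the last CCAAT in 21 of the 23 members that hold both (91.3%), against 897 of 2082 genes over all windows (43.1%), an order looked at after the positions had been seen. The differences in these tumors were set beside the motifs. The median log2 difference after γδ TCR blockade was -0.65 over the 23 genes with both and -0.72 over the 9 without, and with anti-IL-38 it was -0.40 and -0.43.

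**Figure D1:**
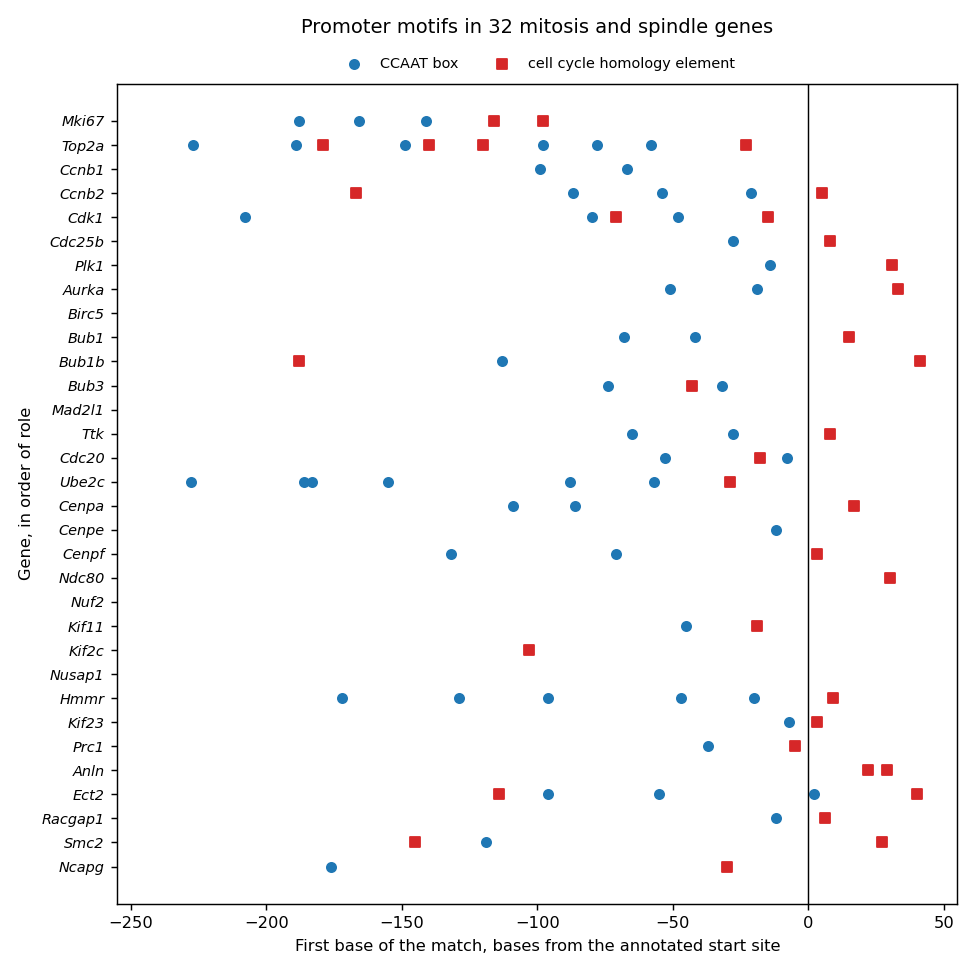
Positions of CCAAT boxes and of the cell cycle homology element (TTTGAA or TTCGAA) in the promoter windows of 32 members, in bases from the annotated start site (x axis), with one gene per line in order of role. Each point is the first base of a match; the CCAAT points lie mostly upstream (median -74) of the others (median -10).

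Total reads per library ran from 6273049 to 15879164, and 18138 to 20331 genes were detected. The IL-38 gene, Il1f10, had no reads in any of the 23 libraries, which allows up to 0.189 to 0.478 CPM (reads scaled to a total of 1000000) by counting error alone, so its level checks neither the KO label nor the target. All 14 epithelial markers were read in every library, summing to 1967 to 4902 CPM. A set of 5 libraries stood apart from the other 18: KO IgG replicate 4 and all 4 KO anti-γδTCR libraries. They had fewer reads (6273049 to 8794202 against 10138353 to 15879164), more reads on processed pseudogenes (1.31% to 1.98% against 0.0943% to 0.191%) and on Gm42418, a locus over ribosomal RNA sequence (11.3% to 20.1% against 2.62% to 5.70%). All 9 macrophage markers were read in all 23 libraries, but their sum was 851 to 1458 CPM in the 5 and 7374 to 19515 CPM in the 18, while the epithelial sum was 3429 to 4417 CPM in the 5. The blockade comparison is therefore confounded with this difference except through KO IgG replicate 4, and the part of it in that comparison was not tested.

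Summed over the 40 genes, the level was lowest in the tumors treated with anti-γδTCR. The sums in CPM were 1659, 1171, 1375 and 1264 there (mean 1367 ± 212, SD, n = 4). KO IgG tumors reached 2298 ± 198 (SD, n = 4), WT IgG tumors 2082 ± 102 (SD, n = 4), IgG tumors 2714 ± 859 (SD, n = 5) and anti-IL-38 tumors 1917 ± 236 (SD, n = 6). Neighbours in that order overlapped, from IgG (2134 to 4211) over KO IgG (2068 to 2551) and WT IgG (1996 to 2209) to anti-IL-38 (1689 to 2287), except that the highest blockade library was below the lowest of the other 19. That gap depended on the scaling: with TMM-scaled levels, looked at after seeing the data, the blockade sums averaged 1452 ± 281 (SD, n = 4) and the highest, 1775, was above 2 anti-IL-38 libraries (1679 and 1772), and WT IgG (1955 ± 72.7, SD, n = 4) changed places with anti-IL-38 (1988 ± 231, SD, n = 6). The spread in IgG came from replicate 5, at 4211 CPM, without which the IgG mean was 2340 ± 223 (SD, n = 4). These sums span both experiments and carry no test.

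**Figure D2:**
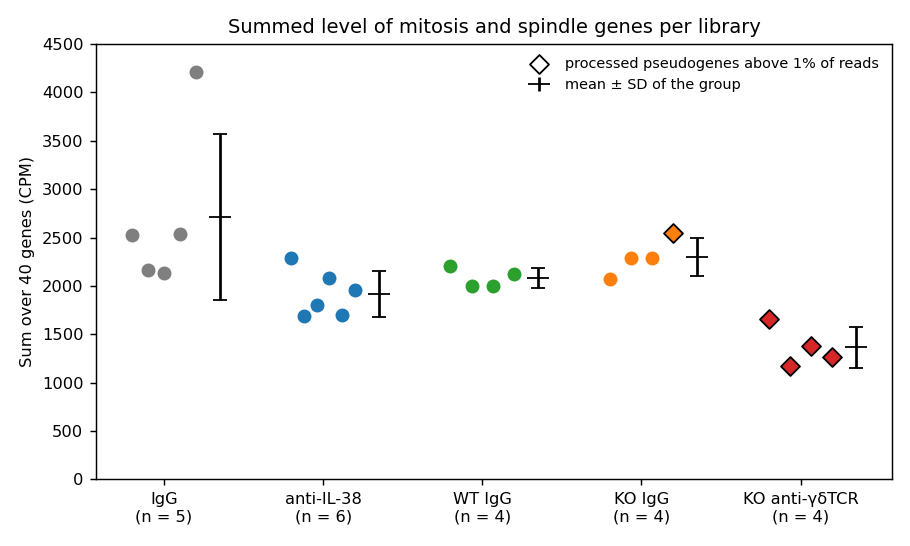
Sum of the levels of the 40 genes in each library (y axis, CPM, from 0) by group (x axis), with mean ± SD beside the points and diamonds for the libraries with over 1% of reads on processed pseudogenes. The 4 KO anti-γδTCR libraries lie between 1171 and 1659 CPM, below the other 19 on this scale (with TMM scaling the highest is above 2 anti-IL-38 libraries), while KO IgG replicate 4, the fifth diamond, is the highest of its group at 2551 CPM.

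Gene by gene the full order of the sums held for 17 of the 40 genes, but the lowest place was shared by nearly all of them. The group mean was lowest in KO anti-γδTCR tumors for 39 of 40 genes, the exception being Ect2, the exchange factor that activates RhoA for cytokinesis, whose mean was 9.15 CPM in anti-IL-38 and 10.1 CPM in KO anti-γδTCR tumors. The highest mean was in IgG for 32 genes and in KO IgG for 8. Without IgG replicate 5 these counts were 22 and 15, with WT IgG highest for 2 and anti-IL-38 for 1. That library was the highest of all 23 for 34 genes, and a blockade library was the lowest of all 23 for 36. In 11 genes all 4 blockade libraries were below all 19 others in CPM, and in 6 with TMM scaling, under which the lowest group mean was again in KO anti-γδTCR for 39 genes. No share of all genes was set beside these counts, so they are not read as particular to the list.

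Mki67, which encodes the proliferation marker Ki-67, had means of 158 ± 50.4 CPM in IgG (SD, n = 5), 104 ± 24.4 in anti-IL-38 (SD, n = 6), 123 ± 15.9 in WT IgG, 127 ± 22.0 in KO IgG and 74.2 ± 30.4 in KO anti-γδTCR tumors (SD, n = 4 each). Top2a, the topoisomerase that untangles sister chromatids, ran from 175 ± 31.7 CPM in KO anti-γδTCR to 420.4 ± 273 in IgG tumors, and Plk1 from 36.6 ± 2.77 to 105 ± 29.7. The blockade libraries of Plk1 spanned only 34.1 to 39.4 CPM, and the WT IgG libraries 55.4 to 65.9. Cdc25c, a phosphatase that activates Cdk1, was read most thinly, with 9 to 109 reads per library, so its values are the least precise of the list.

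The 40 genes varied together within groups. After each group's mean was taken off the log2 CPM, the median of the 780 pairwise correlations over 23 libraries was 0.47, and 749 were above 0. Top2a followed the mean of the other members most closely (r = 0.932), and Anln, which encodes the contractile ring protein anillin, least (r = 0.232). The libraries share depth and scaling, and without IgG replicate 5 the median pairwise correlation was 0.289 with 661 pairs above 0, and Top2a was at 0.828.

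**Figure D3:**
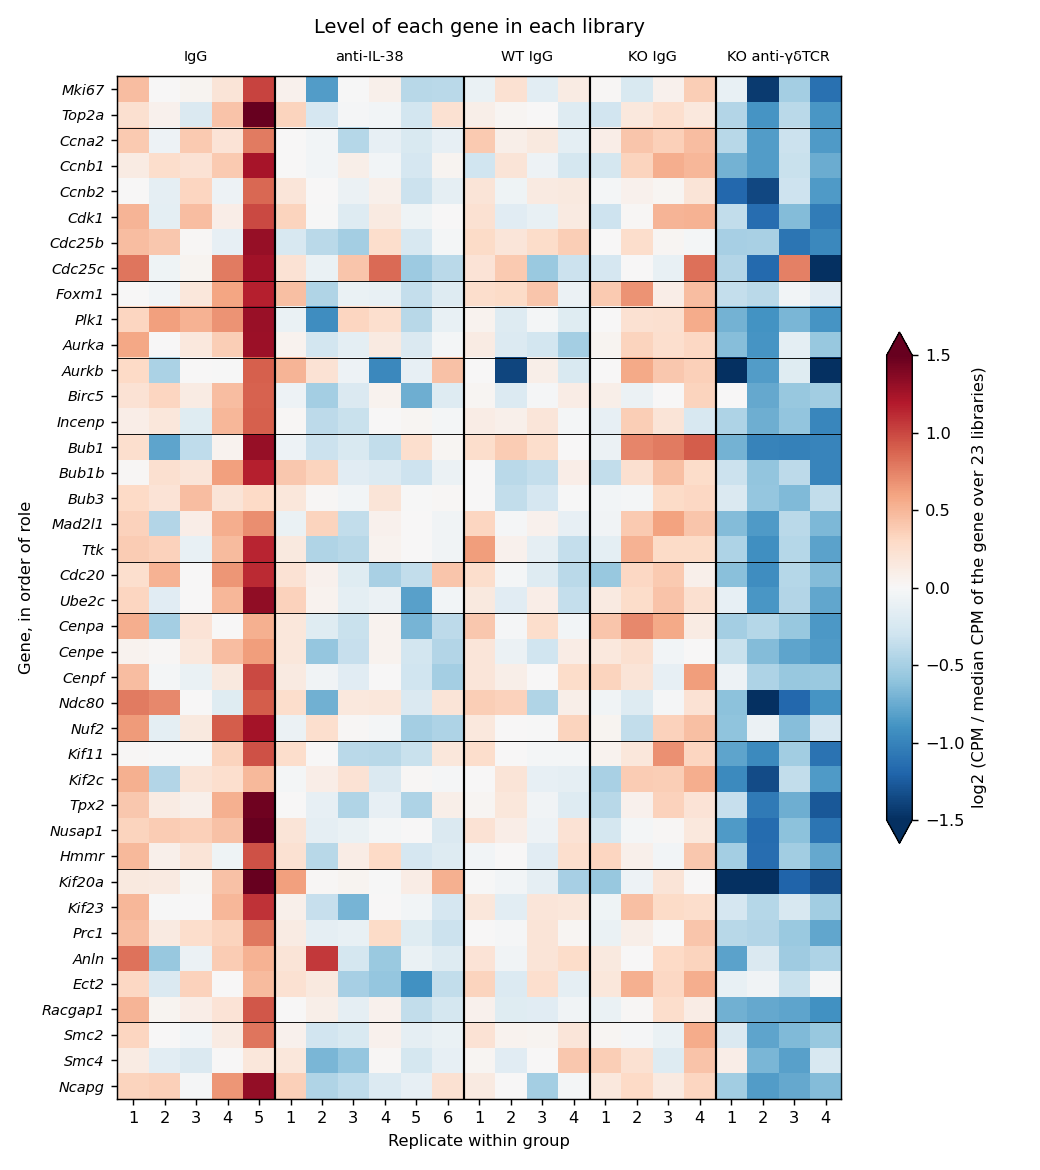
Level of each of the 40 genes (y axis, in order of role) in each of the 23 libraries (x axis, by group and replicate), as log2 of the CPM over that gene's median CPM, with colours limited to -1.5 and 1.5. IgG replicate 5 is the highest library for 34 of 40 genes, and the 4 KO anti-γδTCR libraries hold the lowest value for 36.

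IL-38 KO tumors treated with anti-γδTCR had the lowest summed levels, and every member was on the lower side. Except through KO IgG replicate 4, blockade is confounded here with the difference of the libraries that stood apart. All 40 genes were lower in KO anti-γδTCR than in KO IgG tumors, against 48.1% of the 16481 genes tested, with a median log2 difference of -0.66 beside 0.02 over all genes. By limma's test on log2(normalized count + 1), 34 members were lower at an unadjusted p under 0.05, against a background of 9% of all genes lower and 12.7% higher, and 6 were not: Birc5, Bub1b, Cdc25c, Ect2, Nuf2 and Smc4. After Benjamini-Hochberg adjustment over all genes, 0 members passed 0.05, as for 0% of all genes, and the smallest adjusted p was 0.0657. In 18 members all 4 blockade values were below all 4 KO IgG values, against 4.98% of all genes. The levels in the next paragraphs are normalized counts of the table that holds only these 8 libraries, replicates 1 to 4 in order, and differences are on the log2(normalized count + 1) scale.

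Among the kinases that drive mitosis, Plk1 stood at 561, 657, 693 and 889 in KO IgG and at 404, 334, 447 and 332 in KO anti-γδTCR tumors. The groups did not overlap, and the log2 difference was -0.87 ± 0.17 (SE), 1.83-fold lower, with the smallest p of the list (adjusted p = 0.0657 by limma). Aurka, the centrosomal Aurora kinase, was 188, 229, 227 and 244 against 139, 109.9, 212 and 134, a log2 difference of -0.61 ± 0.21 (SE), with replicate 3 of the blockade group inside the control range. Cdk1 read 433, 541, 797 and 828 in controls and 489, 269, 436 and 282 after blockade (log2 difference -0.81 ± 0.26, SE, adjusted p = 0.106 by limma). Its lowest control lay below the 2 highest blockade libraries.

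The cyclins went the same way. Ccnb1, which encodes cyclin B1, was 196, 296, 359.9 and 358 in KO IgG and 170.0, 145, 239 and 154 in blockade tumors, with a log2 difference of -0.76 ± 0.24 (SE, adjusted p = 0.0965 by limma). Ccna2 (cyclin A2) did not overlap, at 229 to 316 against 129.8 to 219, a log2 difference of -0.76 ± 0.21 (SE). Ccnb2 differed by -0.81 ± 0.25 (SE) and Cdc25b, a phosphatase that starts Cdk1 activation, by -0.65 ± 0.18 (SE) with no overlap. Cdc25c was 25.3, 30, 29.2 and 57.4 against 26.2, 14.9, 65.1 and 9.9, and its difference of -0.55 was about the size of its SE of 0.54. Over the 6 cyclin and Cdk genes the median was -0.76, and 5 had an unadjusted p under 0.05. Foxm1, the transcription factor that turns on this program, was 158, 192, 135 and 179 against 111, 101, 150.2 and 117, a log2 difference of -0.47 ± 0.19 (SE, adjusted p = 0.187 by limma).

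The chromosomal passenger complex joins Aurora B to INCENP and survivin, the product of Birc5. Aurkb showed one of the 3 largest differences of the list: 59.7, 88, 82.2 and 81.7 in KO IgG and 24.9, 36.6, 66.9 and 17.6 after blockade, a log2 difference of -1.23 ± 0.38 (SE, adjusted p = 0.0946 by limma). Incenp did not overlap, at 505 to 712 against 307 to 476, a log2 difference of -0.56 ± 0.19 (SE). Birc5 was 933, 821, 919 and 1185 against 1035, 567, 758 and 665, and its difference of -0.37 ± 0.20 (SE, adjusted p = 0.304 by limma) left the groups overlapping through replicate 1 of the blockade group.

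Of the 5 checkpoint genes, 4 were lower at an unadjusted p under 0.05 and the median was -0.71. Bub1, a kinetochore kinase of the checkpoint, was 56.2, 99.6, 107 and 120.4 in KO IgG against 43.2, 33.2, 38 and 33, 2.48-fold lower, with no overlap (log2 difference -1.31 ± 0.28, SE, adjusted p = 0.0657 by limma). Mad2l1, whose product Mad2 sequesters Cdc20, differed by -0.80 ± 0.23 (SE), and Ttk, the kinase Mps1 at the head of the pathway, by -0.71 ± 0.22 (SE). Bub3, the adaptor of Bub1, was 991, 999.8, 1304 and 1357 against 1036, 754, 827 and 862 (log2 difference -0.41 ± 0.16, SE, adjusted p = 0.159 by limma). The arm that ends mitosis was also lower: Cdc20, the APC/C activator whose window is printed above, was 339, 626, 692 and 569 against 385, 292, 478 and 349.9 (-0.54 ± 0.24, SE, adjusted p = 0.222 by limma), the groups overlapping through the low first control. Ube2c, the ubiquitin-conjugating enzyme of the APC/C, was 752 to 966 against 417 to 747 with no overlap (-0.64 ± 0.20, SE).

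At the kinetochore, Cenpa, the histone H3 variant that marks the centromere, was 363, 449, 423 and 319 in KO IgG and 226, 224, 235 and 164 in blockade tumors, with no overlap and a log2 difference of -0.87 ± 0.17 (SE, adjusted p = 0.0657 by limma). Cenpe, a kinetochore motor, differed by -0.57 ± 0.15 (SE) and Ndc80, of the complex that grips microtubules, by -0.97 ± 0.30 (SE), neither overlapping. Cenpf was 868, 786, 661 and 1146 against 773, 550.5, 593 and 513 (-0.50 ± 0.19, SE, adjusted p = 0.163 by limma). Nuf2, the partner of Ndc80, differed by only -0.33 ± 0.27 (SE), with every blockade value inside the control range of 38.9 to 74.

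All 5 spindle genes had an unadjusted p under 0.05, with a median of -0.75. Kif11, the Eg5 motor that pushes the poles apart, was 166, 180.2, 270.1 and 215 in KO IgG and 109.9, 91.6, 143 and 81.4 after blockade, 1.96-fold lower with no overlap (-0.97 ± 0.23, SE, adjusted p = 0.0657 by limma). Kif2c, a motor that dismantles microtubules, differed by -0.89 ± 0.33 (SE), Hmmr by -0.75 ± 0.21 (SE), Tpx2, the activator of Aurora A, by -0.73 ± 0.26 (SE), and Nusap1, which bundles spindle microtubules, by -0.72 ± 0.20 (SE). Kif20a, a motor of the central spindle, had the largest difference of the 40: 54.8, 77.1, 96.8 and 87.2 against 19.6, 20.6, 45.2 and 35.2, 2.67-fold lower with no overlap (-1.41 ± 0.33, SE, adjusted p = 0.0657 by limma).

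Among the other 5 cytokinesis genes the differences were smaller. Racgap1, which forms centralspindlin with the motor Kif23, was 295 to 398 against 185 to 235 with no overlap (-0.69 ± 0.16, SE), and Kif23 itself differed by -0.41 ± 0.18 (SE) with overlap. Prc1, which crosslinks the central spindle, was 452, 511, 502 and 695 against 428, 395, 419.7 and 307 without overlap (-0.47 ± 0.17, SE, adjusted p = 0.146 by limma). Anln differed by -0.52 ± 0.20 (SE) and Ect2 by -0.34 ± 0.18 (SE, adjusted p = 0.298 by limma), both without overlap. Of the condensins, which compact chromosomes, Ncapg was 210.0, 230.0, 215 and 252 against 154, 117, 141 and 131 (-0.74 ± 0.16, SE, adjusted p = 0.0657 by limma). Smc2 was 1001, 969, 961 and 1555 against 1003, 628, 796 and 724 (-0.50 ± 0.20, SE, adjusted p = 0.175 by limma), and its partner Smc4 overlapped widely (-0.44 ± 0.22, SE). Mki67, at 1084, 911, 1172 and 1486 against 1173, 436, 963 and 537, differed by -0.67 ± 0.30 (SE, adjusted p = 0.228 by limma), and Top2a, at 1969, 2680.0, 2998 and 2878 against 2089, 1433, 2323 and 1435, by -0.55 ± 0.21 (SE, adjusted p = 0.15 by limma).

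**Figure D4:**
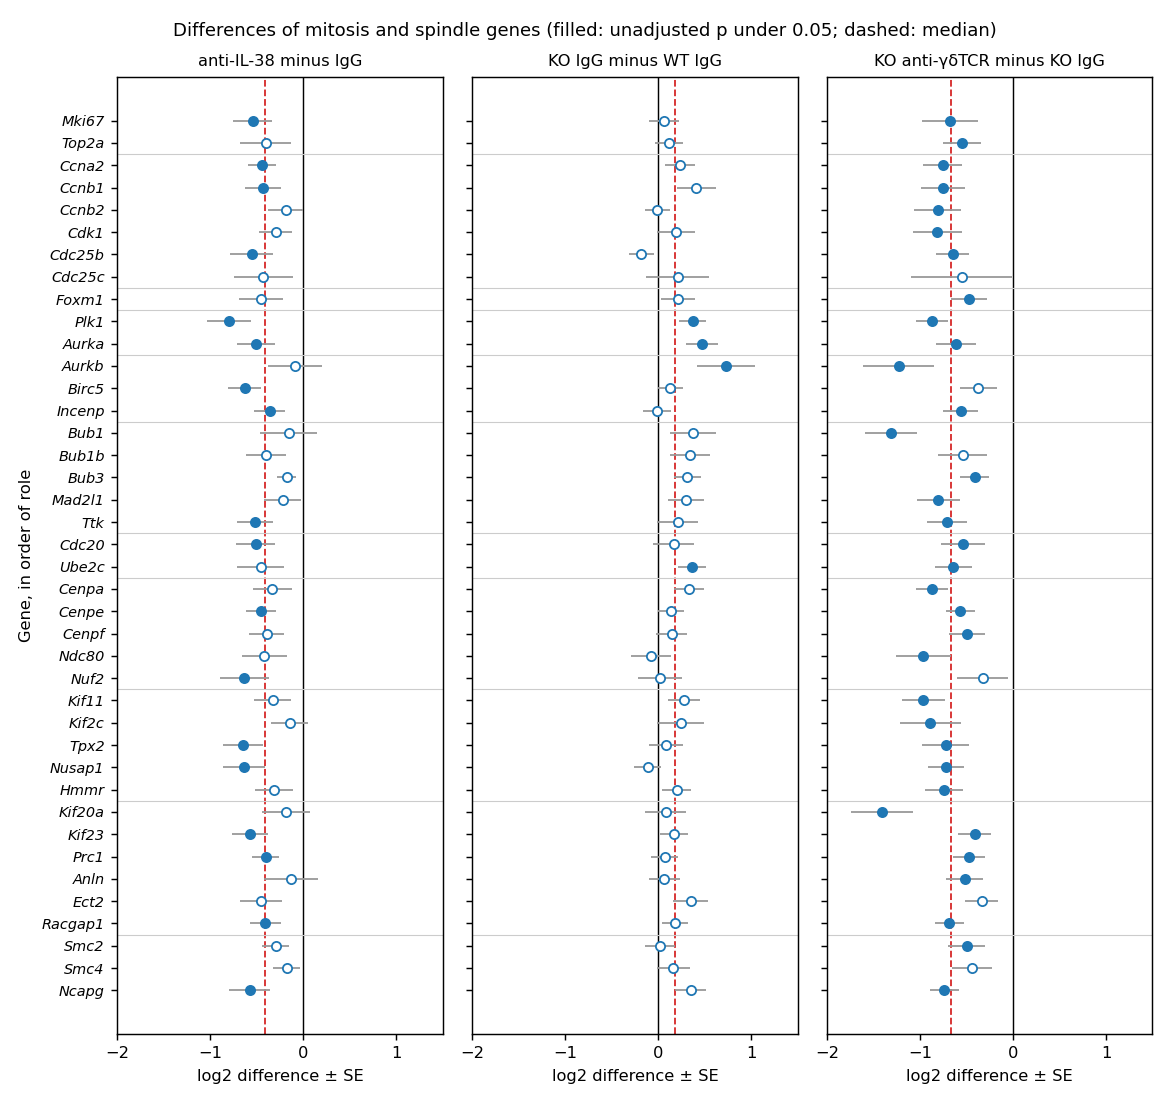
Log2 difference ± SE of each of the 40 genes (y axis, in order of role) for anti-IL-38 against IgG, KO IgG against WT IgG and KO anti-γδTCR against KO IgG, filled where limma's unadjusted p is under 0.05, with the median of the 40 as a dashed line. The medians are -0.41, 0.19 and -0.66; the last panel holds 34 filled points and the middle panel 4. Both panels with KO tumors use the same KO IgG libraries.

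KO IgG replicate 4 is the only control library that resembles the blockade libraries in depth, pseudogene reads and macrophage markers. A single library cannot show what part that difference has in the comparison, which was not tested. KO IgG replicate 4 was above all 4 blockade libraries in 39 of the 40 genes and was the highest of the KO IgG libraries in 22. No share of all genes was set beside these counts, so they are not read as particular to the list. Over the members the log2 value of KO IgG replicate 4 exceeded the blockade mean by a median of 0.87, and the mean of the other 3 KO IgG libraries did so by 0.64. With KO IgG replicate 4 left out, all 40 genes were lower, and limma called 8 after adjustment, against 4.85% of all genes. These were Cenpa, Plk1, Bub1, Ncapg, Racgap1, Kif11, Kif20a and Cenpe. Over all genes that fit called 800 lower and 1557 higher of 16480, where limma with all libraries called 0%. Without KO IgG replicate 4 no control library of the kind that stood apart is left, so blockade and that difference cannot be told apart. DESeq2 on the recovered reads of all 8 libraries called 14 (3.7% of all genes), those 8 and Ccna2, Nusap1, Hmmr, Mad2l1, Cdc25b and Ccnb1, whereas with edgeR none was called (0% of all genes) and the unadjusted p was below 0.05 for 35 (10.5% of all genes). Without KO IgG replicate 4, DESeq2 and edgeR each called 14 (6.17% and 5.59% of all genes), and limma on values scaled to library totals called 28 (9.67%), fits chosen after the data had been seen. Scaling to library totals moved the median over all genes to -0.15 and that of the members to -0.84. Beside these differences, 6 of 9 macrophage markers were lower at an unadjusted p under 0.05 (median -0.96), and 3 of 14 epithelial markers were higher (median 0.17). The 6 muscle genes were all on the higher side with none at that level (median 1.46, and 0.47 without KO IgG replicate 4). Their part in the result was not tested.

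With the anti-IL-38 antibody all 40 genes were again on the lower side, but by less, and none passed the adjusted test. The median log2 difference from IgG was -0.41, beside 0.00 over the 16002 genes tested, of which 49.8% were lower. By limma, 18 members were lower at an unadjusted p under 0.05, against 4.91% of all genes, and 0 passed after adjustment, as for 0% of all genes, with a smallest adjusted p of 0.376. DESeq2 and edgeR called no member either (0.469% and 0% of all genes), and both had 19 members lower at that unadjusted level (5.14% and 5.03% of all genes). Birc5, Tpx2 and Nusap1 were the 3 members whose groups did not overlap in this direction, against 0.644% of all genes. IgG replicate 5 weighed on these values: without it the median was -0.24, 37 genes were lower and 3 higher, and 9 had an unadjusted p under 0.05 (3.38% of all genes).

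Plk1 had the largest difference. It stood at 963, 1240.3, 1183, 1244 and 1997 in the 5 IgG tumors and from 433 over a median of 745 to 1155 in the 6 anti-IL-38 tumors, a log2 difference of -0.80 ± 0.24 (SE, adjusted p = 0.412 by limma). Tpx2 was 870.5, 754, 744, 968 and 1901 against 488 to 737 with a median of 649 (-0.65 ± 0.22, SE, adjusted p = 0.418 by limma), and Nusap1 was 695, 751, 755, 756 and 1899 against 500.2 to 651 with a median of 570.3 (-0.64 ± 0.22, SE, adjusted p = 0.421 by limma). In both, the last IgG library was far above the other IgG libraries, and the lowest IgG library was above the highest treated one. Birc5 was 1398, 1570.3, 1404, 1676 and 2330.1 in IgG and 735 to 1337 with a median of 1139 in anti-IL-38 tumors, the smallest p of the list (-0.63 ± 0.17, SE, adjusted p = 0.376 by limma).

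Other members overlapped between the groups. Ccnb1 was 353, 405, 403, 432 and 805 against 276 to 413 with a median of 338, a log2 difference of -0.43 ± 0.19 (SE, adjusted p = 0.467 by limma), and Cdc20 was 822, 1038, 741, 1112 and 1582 against 531 to 976 with a median of 754 (-0.51 ± 0.21, SE, adjusted p = 0.432 by limma). Prc1 was 916, 764, 852, 849.6 and 1211 against 562 to 868 with a median of 694 (-0.40 ± 0.15, SE, adjusted p = 0.425 by limma). Mki67 was 2025, 1537, 1619, 1703 and 3107 against 885 to 1751 with a median of 1379 (-0.54 ± 0.21, SE, adjusted p = 0.432 by limma).

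Of the fixed examples, 8 did not reach an unadjusted p of 0.05. Top2a (-0.40 ± 0.28, SE) rested on one IgG library of 11525 among values of 3037 to 4500.4, against 2784 to 4264 in treated tumors. Foxm1 (-0.45 ± 0.24, SE), Cenpf (-0.39 ± 0.19, SE), Kif11 (-0.33 ± 0.20, SE), Cdk1 (-0.30 ± 0.18, SE), Smc2 (-0.30 ± 0.15, SE) and Bub3 (-0.18 ± 0.10, SE) were lower by between 0.18 and 0.45. Aurkb was 100.1, 61.6, 87.3, 82 and 160.1 in IgG and 44.8 to 119.6 with a median of 97.2 in anti-IL-38 tumors, the smallest difference of the list (-0.09 ± 0.29, SE). By role, both mitotic kinases were lower at an unadjusted p under 0.05, as were 3 of 6 cyclin and Cdk genes, 3 of 6 cytokinesis genes, 2 of 5 kinetochore genes, 2 of 5 spindle genes and 1 of 5 checkpoint genes. In the same comparison the marker lists of T and NK cells (median 0.87, 2 of 12 higher at an unadjusted p under 0.05), fibroblasts (0.63, 2 of 8) and epithelium (0.48, 3 of 14) were higher, where 5.61% of all genes were higher at that level. Without IgG replicate 5 these medians were 0.40 (1 of 12), 0.33 (1 of 8) and 0.43 (1 of 14). The neutrophil list was lower (median -0.25, 1 of 4 at that level, where 4.91% of all genes were lower). IgG replicate 5 had the lowest sums of all 23 libraries for epithelial (1967 CPM), fibroblast (1198 CPM) and T and NK cell markers (9.83 CPM). Its neutrophil sum was the highest (166 CPM). The part of these cell types in the lower mitotic levels was not tested.

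Deletion of IL-38 gave small differences to the other side. In KO IgG against WT IgG tumors 35 of the 40 genes were higher, whereas 49.4% of the 16563 genes tested were lower, and the median was 0.19. By limma 4 members were higher at an unadjusted p under 0.05, against 6.73% of all genes, a share of the members near the background, and 0 passed after adjustment (0.00604% of all genes, 1 gene, did). DESeq2 and edgeR called no member (1.84% and 0% of all genes), with 5 and 4 higher before adjustment (7.81% and 8.87% of all genes). Ube2c and Ncapg were the 2 members with all KO above all WT values (3.66% of all genes). Without KO IgG replicate 4 the median was 0.13, 31 genes were higher and 3 had an unadjusted p under 0.05 (8.6% of all genes).

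Aurkb had the largest difference, at 76.7, 31.1, 83.2 and 66.2 in WT IgG and 79.5, 116, 106 and 104 in KO IgG tumors (log2 difference 0.73 ± 0.31, SE, adjusted p = 0.379 by limma). The second WT library was below all others. Aurka was 258, 217, 199 and 168 against 249.8, 302, 294 and 312 (0.47 ± 0.17, SE, adjusted p = 0.324 by limma). Ccnb1 was 248, 367, 295 and 257 against 261, 389.8, 466 and 457 (0.41 ± 0.21, SE, adjusted p = 0.444 by limma). Plk1 was 754, 669, 721 and 649 against 747, 867, 897 and 1135 (0.37 ± 0.15, SE, adjusted p = 0.357 by limma), with the first KO library inside the WT range. Ube2c was 987, 832, 968 and 700.1 against 1002, 1099, 1250.5 and 1111 (0.36 ± 0.15, SE, adjusted p = 0.359 by limma).

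The remaining fixed examples lay within 0.31 of no difference: Bub3 (0.31 ± 0.15, SE), Kif11 (0.28 ± 0.18, SE), Foxm1 (0.21 ± 0.18, SE), Cdk1 (0.19 ± 0.20, SE), Cdc20 (0.17 ± 0.22, SE), Cenpf (0.15 ± 0.17, SE), Birc5 (0.13 ± 0.14, SE), Top2a (0.12 ± 0.15, SE), Prc1 (0.07 ± 0.15, SE), Mki67 (0.06 ± 0.17, SE) and Smc2 (0.02 ± 0.16, SE). On the lower side were Cdc25b (-0.18 ± 0.13, SE), Nusap1 (-0.11 ± 0.14, SE) and Ndc80 (-0.08 ± 0.21, SE). In the same libraries the macrophage list was lower in KO tumors for 9 of 9 genes (median -0.49, and -0.30 without KO IgG replicate 4), the adipocyte list for 6 of 6 (median -1.09) and the T and NK cell list for 10 of 12 (median -0.52). The muscle list was higher for 6 of 6 genes (median 2.25), with 1 of them at an unadjusted p under 0.05, and all 6 without KO IgG replicate 4 (median 3.22). Their part was not tested.

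The antibody and the deletion thus stood on opposite sides of their controls, and the difference between them was tested in the 19 libraries of the larger table. The antibody and the deletion belong to separate experiments, with different starts of treatment and different control IgG. A difference between the experiments cannot be told apart from one between antibody and deletion. The anti-IL-38 difference minus the KO difference was negative for all 40 genes, against 47.7% of 16352 genes, with a median of -0.60. By limma's interaction term 19 members had an unadjusted p under 0.05 on that side (3.43% of all genes) and 0 passed after adjustment, where 0.00612% of all genes, 1 gene, did. DESeq2 and edgeR called no member (0.135% and 0% of all genes) and had 21 each before adjustment (4.21% and 3.98% of all genes). Plk1 was farthest apart (-1.17 ± 0.32, SE, adjusted p = 0.525 by limma), followed by Aurka (-0.98 ± 0.28, SE, adjusted p = 0.525) and Ncapg (-0.93 ± 0.30, SE, adjusted p = 0.564). Without IgG replicate 5 the median was -0.45 with 13 members at an unadjusted p under 0.05 (2.99% of all genes), and without KO IgG replicate 4 it was -0.51 with 14 (3.52%). The lowest count on leaving out 1 library was 12, without WT IgG replicate 4 (536 of 16349 genes). The highest was 25, without IgG replicate 2 (641 of 16389 genes).

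With both ways of removing IL-38 pooled (10 anti-IL-38 and KO IgG libraries against 9 IgG and WT IgG libraries), the differences were smaller. The median was -0.15, 35 genes were lower, against 49.4% of all genes, and 3 had an unadjusted p under 0.05 by limma, against 4.13% of all genes: Nusap1 (-0.40 ± 0.17, SE), Cdc25b (-0.39 ± 0.15, SE) and Birc5 (-0.30 ± 0.14, SE). None of the 40 passed after adjustment (0% of all genes), the smallest adjusted p among these 3 being 0.38. DESeq2 and edgeR called no member (0.428% and 0.00612% of all genes), with 4 each before adjustment (4.34% and 4.01% of all genes). Aurkb (0.26 ± 0.23, SE), Bub1 (0.06 ± 0.22, SE) and Bub3 (0.04 ± 0.11, SE) were highest. Without IgG replicate 5 the median was -0.04 and 15 genes were on the higher side. The knockout, blockade and pooled comparisons share the KO IgG libraries, so their values are set side by side here and not correlated.

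The rest of the cell cycle was described by 4 further lists. Over all genes at an unadjusted p under 0.05, 9% were lower and 12.7% higher after blockade. After γδ TCR blockade 32 of 71 other mitotic genes were lower at an unadjusted p under 0.05 and 0 higher (median -0.52), with Mis18a, a loading factor for Cenpa, at -0.84 ± 0.20 (SE), Ska3 at -1.19 ± 0.29 (SE) and the kinase Melk at -1.11 ± 0.28 (SE). Of 36 replication and licensing genes 21 were lower and 0 higher (median -0.53), led by Pcna, the sliding clamp of DNA polymerases, at 388 ± 72.0 in KO IgG and 169.6 ± 44.9 in blockade tumors (SD, n = 4 each), and Fen1 and Cdt1 were both at -0.74. Among 37 cycle regulators, which hold G1 cyclins, E2F factors and inhibitors, 8 were lower and 2 higher (median -0.27), including the E2F factors E2f8 (-1.11) and E2f2 (-0.75), and the CDK inhibitor Cdkn1c was also lower (-1.11). Cohesin and APC/C subunits, which are not made only in dividing cells, went both ways: 4 of 20 lower, 2 higher, median 0.09, with Stag2 at 0.57, Anapc10 at -0.71 and Anapc1 at -0.43.

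With anti-IL-38, 25 of 71 other mitotic genes were lower at an unadjusted p under 0.05 and 0 higher (median -0.34), among them Cdca8, the borealin subunit of the passenger complex (-0.62), Tacc3 (-0.71) and Troap (-0.88). Of 36 replication genes 13 were lower and 0 higher (median -0.38), led by Mcm5, a subunit of the replicative helicase, at 905 ± 149 in IgG (SD, n = 5) and 526 ± 74.7 in anti-IL-38 tumors (SD, n = 6), with Cdt1 at -0.57 and Pole at -0.66. Of 37 regulators, 6 were lower and 1 higher (median -0.06), including Cdk6 (-0.40), Lin9, a DREAM subunit (-0.40), and Cdk4 (-0.41), and 3 of 20 cohesin and APC/C subunits were lower and 1, Anapc7, higher (median -0.13). In the knockout the counts were 1 lower and 6 higher of 72 other mitotic genes (median 0.17, with Nek2 at 0.99, Ska3 at 0.84 and Pttg1, the securin, at -0.62), 0 and 4 of 36 replication genes (median 0.11, with Fen1 at 0.47, Orc1 at 0.95 and Mcm4 at 0.52), 0 and 1 of 37 regulators (median 0.11, Cdk2 at 0.47) and 0 and 0 of 20 subunits (median 0.07). The shares of all genes at this level were 4.91% lower and 5.61% higher with anti-IL-38. In the knockout they were 5.4% lower and 6.73% higher.

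These lists also depended on single libraries and on the tool. Without IgG replicate 5, 13 of 71 other mitotic genes (median -0.20) and 8 of 36 replication genes (median -0.22) were lower with anti-IL-38, with medians of -0.03 for the regulators (4 of 37 lower) and -0.06 for the subunits. Over all genes, 3.38% were lower in that fit. In the knockout, leaving out KO IgG replicate 4 gave medians of 0.05 for the replication genes (2 of 36 higher), 0.05 for the regulators (0 higher and 1 lower) and -0.04 for the subunits. Over all genes, 8.6% were higher and 870 of 16225 lower in this knockout fit. No gene of the 4 lists passed limma's adjusted test in these 3 comparisons with all libraries. After blockade, however, DESeq2 called 13 other mitotic, 7 replication and 4 regulator genes lower, and 1 subunit lower and 1 higher. Over all genes it called 3.7% lower and 426 of 16481 higher. Limma without KO IgG replicate 4 called 8, 4 and 4 lower in the same lists, with 1 other mitotic gene, 1 regulator and 3 subunits higher. Over all genes that confounded fit called 4.85% lower and 1557 of 16480 higher. DESeq2 also called 2 replication genes and 1 other mitotic gene lower with anti-IL-38, and 1 other mitotic gene higher in the knockout. In both directions together it called 0.469% of all genes with anti-IL-38 and 1.84% in the knockout.

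**Figure D5:**
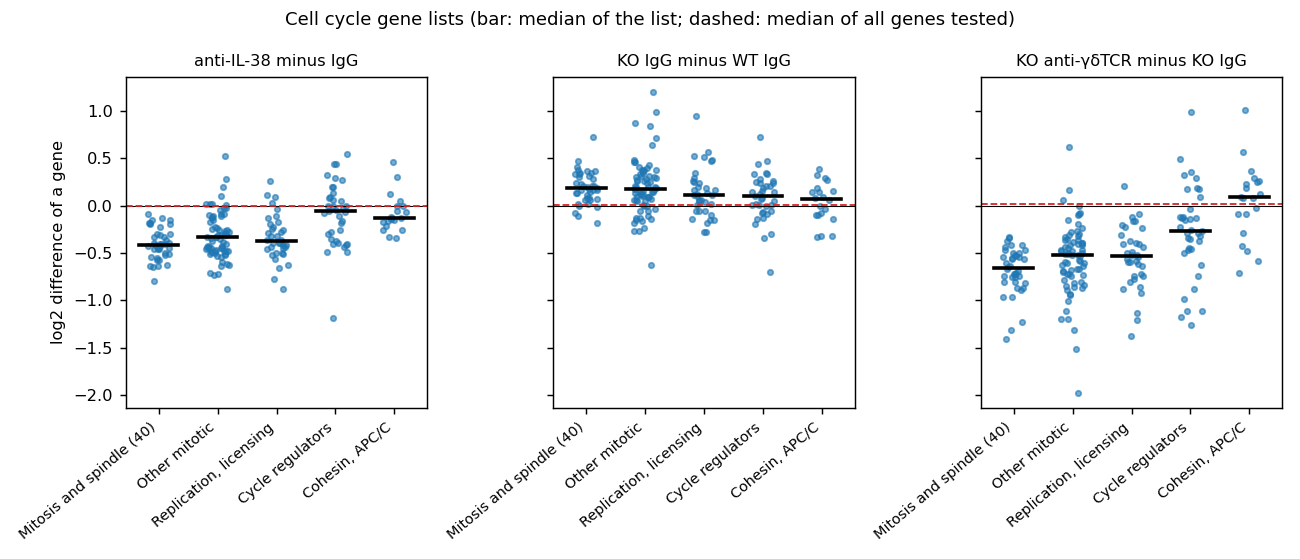
Log2 difference of each gene (points) in the 40 mitosis and spindle genes and 4 other cell cycle lists (x axis) in 3 comparisons, with the median of each list as a bar and the median over all genes tested as a dashed line. Mitosis, other mitotic and replication lists lie below 0 with anti-IL-38 (medians -0.41, -0.34 and -0.38) and after γδ TCR blockade (-0.66, -0.52 and -0.53), and slightly above 0 in the knockout (0.19, 0.17 and 0.11).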

How the data were processed

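The 23 libraries are QuantSeq 3′ mRNA libraries of RNA isolated with TRIzol from PyMT tumors, in 5 groups taken from the labels. The deposited values are a signal, normalized counts that the authors made by dividing the reads of each library by 1 size factor, in 2 tables normalized separately (19 and 8 libraries, with the 4 KO IgG libraries in both). The submitters' processing notes name STAR, HTSeq, DESeq2 and GRCm39, with no versions. Whole reads were recovered for all values (within 0.0001%), and levels across the 5 groups are CPM.

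The main test was limma 3.58.1 (R 4.3.3) on log2(normalized count + 1) with a trend, two-sided, over genes with a mean of at least 5, adjusted by Benjamini-Hochberg over all genes tested with a threshold of 0.05, with only the compared libraries in each fit. This scale understates the change of low genes. The fits were tested on simulated data. Alternatives were a pseudocount of 0.5, no filter on low values, other scalings, edgeR 4.0.16 and DESeq2 1.42.0 on the recovered reads, a replicate block and leaving out each library. The fits with KO IgG replicate 4 left out together with another scaling or tool and the TMM-scaled levels were chosen after seeing the data.

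The members and lists were chosen with earlier results of these data known. Values are given in full for the 3 members with the largest difference in each direction and for 14 fixed members (Mki67, Top2a, Ccnb1, Cdk1, Foxm1, Plk1, Aurkb, Birc5, Bub3, Cdc20, Cenpf, Kif11, Prc1 and Smc2), and of each other list up to 3 genes with the smallest p. The other members were described by role. Gene names came from GENCODE M21 (GRCm38), which matched 47224 of 47643 identifiers and all 289 list genes, and promoters from RefSeq GRCm38.p6, another build than the submitters', so no coordinate was carried between them. Intervals and limits from counts cover counting error only.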

Additional observations from a re-analysis of the deposited data

Results flagged for a closer look

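Each group of 4 to 6 libraries was checked for a single far value in the 14 fixed members and in the sum of the 40 genes with Dixon's ratio at its 95% critical value, 75 checks in all, of which chance gives about 1 in 20. Far values were found 8 times. IgG replicate 5 was far above the next IgG library for Top2a (900.2 against 365 CPM), Ccnb1 (62.9 against 35.1 CPM), Plk1 (156 against 101 CPM), Kif11 (35.2 against 22.8 CPM) and the sum of the 40 genes (4211 against 2538 CPM). Foxm1 was far higher in anti-IL-38 replicate 1 than in the next library of its group (18.6 against 12.7 CPM), Kif11 in WT IgG replicate 1 (21.8 against 18.2 CPM) and Smc2 in KO IgG replicate 4 (163 against 113 CPM).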

How the results depend on the processing

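All members stayed lower after γδ TCR blockade under the alternatives to limma's fit, with medians of -0.84 to -0.62, except that 1 was higher by DESeq2 without KO IgG replicate 4. The number called after adjustment moved most: 0 by limma, 14 by DESeq2, 8 by limma without KO IgG replicate 4 (0 to 8 over left-out libraries) and, chosen after seeing the data, 28 without that library and scaled to totals, 14 without it by DESeq2 and 14 without it by edgeR. Without KO IgG replicate 4 no control resembles the blockade libraries in depth, pseudogene reads and macrophage markers, so these fits are wholly confounded. No alternative called a member in the antibody, knockout, pooled or interaction fits. At an unadjusted p under 0.05, leaving out 1 library gave 9 to 25 members lower with anti-IL-38. Of all genes, 542 of 16013 were lower without IgG replicate 5 (9 members) and 659 of 16023 without IgG replicate 2 (25). Without anti-IL-38 replicate 5 it was 11 members (800 of 16011 genes). The knockout gave 1 to 10 higher. It was 1 without WT IgG replicate 4 (1242 of 16577 genes) and 10 without KO IgG replicate 1 (1079 of 16599). It was 2 without WT IgG replicate 2 (741 of 16597) or KO IgG replicate 3 (961 of 16578). Blockade gave 23 lower without KO anti-γδTCR replicate 4 (1328 of 16450 genes) to 34 without replicate 3 (1463 of 16426). The pooled comparison gave 2 to 7 lower. It was 7 without WT IgG replicate 3 (734 of 16361 genes) and 5 without KO IgG replicate 4 (587 of 16151). Scaled to totals it gave 6 (1257 of 16352). The interaction gave 12 (without WT IgG replicate 4, 536 of 16349 genes) to 25 (without IgG replicate 2, 641 of 16389). The cause of these moves was not tested. The medians over left-out libraries ranged from -0.49 to -0.24, 0.13 to 0.26, -0.78 to -0.56 and -0.18 to -0.04 in the same order.

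Same-numbered libraries did not deviate together (correlations of -0.169 to 0.0746), so the numbers do not pair them. With a replicate block, 12, 3, 32 and 2 members had an unadjusted p under 0.05 in these comparisons and 0 were called. Over all genes on the same side these fits had 570 of 16002, 1168 of 16563, 1510 of 16481 and 1051 of 16352. Scaling to totals reversed Smc2 in the knockout (-0.004) and Bub3 in the pooled comparison (-0.0042). Leaving out a library changed the sign of Aurkb with anti-IL-38 (-0.24 to 0.10), of Mki67 (-0.0524 to 0.17), Prc1 (-0.0462 to 0.14) and Smc2 (-0.14 to 0.0893) in the knockout, and of Top2a (-0.23 to 0.0243), Ccnb1 (-0.14 to 0.076), Cdk1 (-0.13 to 0.0245), Kif11 (-0.14 to 0.0341) and Bub3 (-0.0175 to 0.10) in the pooled comparison. Depth limits Cdc25c most, with 9 reads in its lowest library.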
